A study of Mus musculus with 20 samples.

Results

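The 8 genes described here are the surface and nuclear proteins by which regulatory T cells are commonly recognised: Foxp3, Ikzf2, Ikzf4, Il2ra, Tnfrsf18, Tnfrsf4, Nrp1 and Izumo1r. They were chosen by name, with earlier results of these data known. All 8 were among the 13798 genes of the single-cell expression table, and all 8 passed the filter on low values. The cells were follicular T cells of 10 bone marrow chimeras, sorted from spleen as CD3+CD4+ cells that stained for CXCR5 and PD-1 and were CD45.2+ and CD45.1-. Each mouse gave 1 gene expression and 1 TCR library and is the replicate. The 5 WT chimeras (mice 11, 12, 14, 23 and 36) were C57BL/6 hosts that received congenic WT marrow only and were immunized with NP-OVA in alum in week 6 after irradiation. For non-autoimmune chimeras the paper's methods also describe a later booster of NP-OVA. By the interval given there it would fall close to the time of spleen collection. The 5 mixed 564Igi chimeras (mice 13, 17, 21, 24 and 34) received WT marrow mixed with marrow of 564Igi mice. 564Igi mice carry a knocked-in heavy and light chain for a B cell receptor against self ribonuclear complexes, and the labels give no immunization for the mixed chimeras. Spleens of both groups were taken 10 weeks after irradiation, so marrow and immunization differ together between the groups and cannot be told apart. Cells of both groups were sorted on the same congenic markers. Values by mouse are given below in the order of the mouse numbers listed here.

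Foxp3 is the transcription factor that sets the regulatory T cell programme, and Ikzf2 (Helios) and Ikzf4 (Eos) are Ikaros family zinc finger proteins that act with it. Il2ra encodes CD25, the α chain that raises the affinity of the IL-2 receptor, Tnfrsf18 (GITR) and Tnfrsf4 (OX40) are costimulatory receptors of the TNF receptor superfamily, Nrp1 is the semaphorin receptor neuropilin 1, and Izumo1r encodes the folate receptor family protein FR4. Follicular regulatory T (TFR) cells share the CXCR5+PD-1+ phenotype of follicular helper T (TFH) cells but carry this programme and restrain the germinal center response. Several of these proteins are also induced on conventional T cells by antigen receptor signals, and those do not mark a regulatory cell on their own.

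In the GENCODE annotation of GRCm38, the build of the deposited data, Foxp3 lies on the plus strand of chromosome X (chrX:7573644-7595245). Ikzf2 lies on the minus strand of chromosome 1 (chr1:69531214-69687245) and Ikzf4 on the minus strand of chromosome 10 (chr10:128630843-128645991). Il2ra lies on the plus strand of chromosome 2 (chr2:11642807-11693193), Nrp1 on the plus strand of chromosome 8 (chr8:128358604-128503363) and Izumo1r on the minus strand of chromosome 9 (chr9:14885814-14903949). All 8 are protein-coding. Tnfrsf4 (chr4:156013843-156016612) and Tnfrsf18 (chr4:156026164-156028895) are neighbours on the plus strand of chromosome 4 with 9551 bases between them. Because the levels of this adjacent pair were the most alike of any 2 of the 8 genes, their promoter windows are shown with those of Foxp3. Each spans 250 bases before to 50 bases after the annotated start (RefSeq, GRCm38.p6, plus strand, 5′ to 3′), with a capital for each base of a motif that was searched for.
Foxp3, chrX:7579426-7579725: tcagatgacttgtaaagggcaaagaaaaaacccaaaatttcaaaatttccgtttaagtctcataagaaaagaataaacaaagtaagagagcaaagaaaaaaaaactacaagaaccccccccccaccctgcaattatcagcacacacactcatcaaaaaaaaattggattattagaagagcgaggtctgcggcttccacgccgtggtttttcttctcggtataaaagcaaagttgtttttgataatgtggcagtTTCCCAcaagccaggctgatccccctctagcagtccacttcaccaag
Foxp3, chrX:7580233-7580532: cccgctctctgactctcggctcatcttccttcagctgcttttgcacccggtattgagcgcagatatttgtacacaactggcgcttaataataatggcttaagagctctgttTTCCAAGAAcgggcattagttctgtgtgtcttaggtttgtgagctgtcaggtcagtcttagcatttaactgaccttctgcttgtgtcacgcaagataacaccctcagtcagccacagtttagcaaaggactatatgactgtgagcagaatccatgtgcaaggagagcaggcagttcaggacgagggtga
Tnfrsf4, chr4:156013445-156013744: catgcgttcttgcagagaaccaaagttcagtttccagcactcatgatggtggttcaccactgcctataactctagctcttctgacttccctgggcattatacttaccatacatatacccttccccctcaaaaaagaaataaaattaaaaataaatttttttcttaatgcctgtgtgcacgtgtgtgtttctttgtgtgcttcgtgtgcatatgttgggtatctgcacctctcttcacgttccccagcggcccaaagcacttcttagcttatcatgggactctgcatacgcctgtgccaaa
Tnfrsf18, chr4:156026072-156026371: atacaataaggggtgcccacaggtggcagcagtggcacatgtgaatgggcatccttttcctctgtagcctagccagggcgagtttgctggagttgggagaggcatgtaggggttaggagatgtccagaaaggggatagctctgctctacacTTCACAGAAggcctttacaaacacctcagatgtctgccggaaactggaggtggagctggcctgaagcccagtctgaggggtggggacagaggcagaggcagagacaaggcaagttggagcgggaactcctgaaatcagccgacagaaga

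The capitals mark a match on either strand to TGTTTAC (forkhead), TTCNNNGAA (GAS, the STAT element), TGANTCA (AP-1) or TGGGAA (Ikaros), and no 2 matches overlapped in these windows. The upstream Foxp3 window held an Ikaros match on the opposite strand, 3 bases after the start. The downstream Foxp3 window held a GAS match 139 bases before the start, and the Tnfrsf18 window a GAS match 99 bases before the start. Of 32851 promoter windows of the same length, 25.6% held the Ikaros letters, 8.30% the GAS letters, 7.81% the AP-1 letters and 3.65% the forkhead letters, and each match is a description of these bases. The windows of Tnfrsf4, Il2ra, Nrp1 and Izumo1r held none of the 4 motifs, and Ikzf2 and Ikzf4 had no matching window.

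The table held 28192 cells, 14965 from WT and 13227 from mixed 564Igi chimeras. The authors' clusters divided them into TFR (11650 cells), activated TFH (11953), Sostdc1 (2803), central memory TFH (725), effector TFH (682) and interferon-stimulated TFH cells (TFH-ISG, 379), so that 16542 cells lay outside the TFR cluster. Raw depth ran from 3424280 to 15241983 UMIs per mouse with a median of 2728 to 4375.5 UMIs per cell, and the median was 3461 in TFR and 3547 in activated TFH cells. Of the sorted markers, Cd3e was detected in 99.4% (WT) and 99.5% (564Igi) of cells and Cxcr5 in 41.1% and 40.4%. The B cell genes Ms4a1 (0.0431% of WT and 0.0677% of 564Igi cells) and Cd79a (0.224% and 0.282%) were near 0, whereas Cd79b of the same B cell list was detected in 3.98% and 3.05%, and the summed level of the 3 genes was 0.107 to 0.163 counts per 10000 in WT and 0.0918 to 0.136 in 564Igi mice. In TFR cells that sum was 0.183 to 0.258 in WT and 0.140 to 0.209 in 564Igi mice, above the 0.0446 to 0.106 and 0.0538 to 0.0754 of the other cells. The Foxp3 shares of the Sostdc1 and effector clusters given below lie close to that of Cd79b, and whether these counts come from RNA of other cells was not tested. The libraries of mice 34 and 36, 1 of each group, were numbered apart from the rest, and 491 barcodes occurred in more than 1 library, in 988 cells, none with the same pair of CDR3 sequences.

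A gene was called detected in a cell with at least 1 corrected count, that is, the UMI count after the authors' adjustment for depth. Corrected totals still ran from 2804 to 4591 per cell, so detection was not fully matched for depth. Since the clusters were built from the same cells and genes, the levels by cluster are a description with no test. Across clusters the genes fell into 3 patterns. Foxp3, Ikzf4 and Il2ra were detected mainly in TFR cells, with 84.8%, 81.1% and 79.0% of their detected cells there (means over 10 mice). Ikzf2, Tnfrsf18, Tnfrsf4 and Izumo1r were higher in TFR cells but common in TFH cells, and 50.1%, 53.7%, 53.5% and 43.4% of their detected cells were TFR. Nrp1 was no higher in TFR than in all other cells together, with 40.2% of its detected cells in TFR and 44.6% in activated TFH cells.

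**Figure D1:**
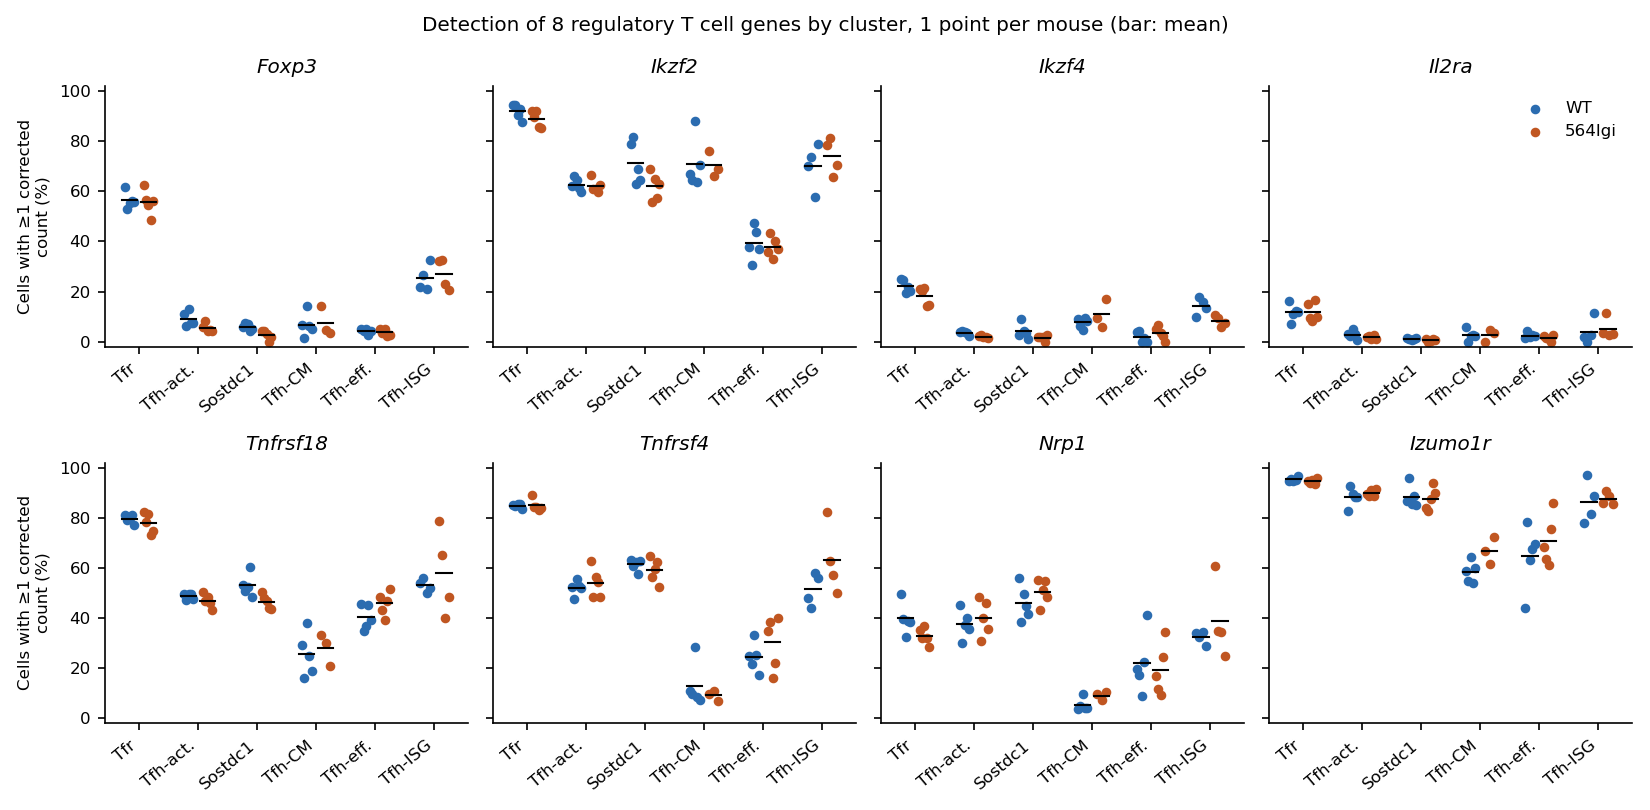
Percent of cells with at least 1 corrected count (y axis) of each of the 8 genes in the 6 clusters (x axis), 1 point per mouse with at least 20 cells of the cluster, WT blue and 564Igi orange, with a bar at the group mean. Foxp3, Ikzf4 and Il2ra stand out in TFR cells, Izumo1r is near the top in most clusters, and Nrp1 is lowest in central memory TFH cells.

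Foxp3 was detected in 56.0% ± 3.98 (SD, n = 10 mice) of TFR cells. It was found in 61.8%, 53.1%, 55.4%, 56.1% and 55.8% of TFR cells in the WT mice and in 62.4%, 56.7%, 54.6%, 48.5% and 56.0% in the 564Igi mice, so the groups overlapped and each mouse lay far above its own TFH cells. Among TFH clusters the order was TFH-ISG (26.3% ± 5.41, n = 8 mice), activated (7.20% ± 2.93), central memory (7.06% ± 4.73, n = 8), Sostdc1 (4.33% ± 2.28) and effector (4.08% ± 1.18). TFH-ISG cells lay above every other TFH cluster and below TFR cells in each mouse that could be compared (6 or 8 mice). Activated and central memory cells, and likewise Sostdc1 and effector cells, did not differ beyond the spread between mice. A cell with detected Foxp3 held 2.21 ± 0.112 corrected counts in TFR and 1.73 ± 0.210 in activated TFH cells, so that the gap between the clusters lay mainly in how many cells were detected. The mean log2(count + 1) level was higher in TFR than in all other cells by 0.78 ± 0.08 (SD over 10 mice).

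The partners of Foxp3 differed widely in breadth. Ikzf2 (Helios) was detected in 90.4% ± 3.34 (SD, n = 10 mice) of TFR cells but also in 72.1% ± 7.79 of TFH-ISG, 70.7% ± 8.08 of central memory, 66.7% ± 8.37 of Sostdc1, 62.4% ± 2.54 of activated and 38.5% ± 5.15 of effector TFH cells. The middle 4 of these overlapped between mice, and effector cells were the lowest in every mouse. Ikzf4 (Eos) was much sparser, in 20.2% ± 3.58 (SD, n = 10 mice) of TFR cells, with 14.3% to 25.2% over mice, and in 11.2% ± 4.10 of TFH-ISG and 8.91% ± 3.82 of central memory TFH cells. Activated (2.83% ± 1.01), Sostdc1 (2.93% ± 2.48) and effector cells (2.73% ± 2.38) could not be ordered, and central memory cells were above activated cells in 8 of 8 mice. On the log2(count + 1) scale TFR cells exceeded all other cells by 0.91 ± 0.13 for Ikzf2 and 0.19 ± 0.03 for Ikzf4, each in 10 of 10 mice.

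Il2ra (CD25) was the rarest of the 8 genes. It was detected in 16.4%, 7.19%, 11.1%, 12.3% and 11.8% of TFR cells in the WT mice and in 14.97%, 9.46%, 8.17%, 16.8% and 9.83% in the 564Igi mice, which overlapped throughout, with a mean of 11.8% ± 3.35 (SD, n = 10 mice). Most TFR cells in the table therefore had no Il2ra count, at a median depth of 3461 raw UMIs per cell, and a cell without a count cannot be read as a cell without the transcript. Outside the TFR cluster its detection ran from 0.890% ± 0.468 in Sostdc1 to 4.65% ± 4.41 in TFH-ISG cells, with activated (2.33% ± 1.26), central memory (2.69% ± 2.09) and effector cells (2.02% ± 1.17) not separable from one another. TFR cells exceeded activated TFH cells in each of the 10 mice, by 9.48 percentage points on average.

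The TNF receptors were high in TFR cells and shared the same order of clusters in part. Tnfrsf4 (OX40) was detected in 84.8% ± 1.65 (SD, n = 10 mice) of TFR cells, with 82.9% to 88.9% over mice, and Tnfrsf18 (GITR) in 78.8% ± 2.98 (SD, n = 10 mice). Sostdc1 (60.2% ± 3.78), TFH-ISG (57.2% ± 11.7) and activated TFH cells (53.1% ± 4.60) followed for Tnfrsf4, and the effector (27.4% ± 8.59) and central memory clusters (11.5% ± 7.04) were far below. For Tnfrsf18, TFH-ISG (55.5% ± 11.7), Sostdc1 (49.8% ± 4.90), activated (47.8% ± 2.20) and effector cells (43.0% ± 5.36) lay close together and only central memory cells stood lower, at 26.4% ± 7.58. The level within detected cells moved as well: a cell with detected Tnfrsf4 held 4.82 ± 0.383 corrected counts in TFR against 2.42 ± 0.270 in activated TFH cells. Tnfrsf4 showed the largest difference in level of the 8 genes, 1.06 ± 0.08 on the log2(count + 1) scale, and Tnfrsf18 differed by 0.80 ± 0.07.

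Nrp1 and Izumo1r were the least particular to TFR cells in detection. Nrp1 was found in 36.3% ± 5.86 (SD, n = 10 mice) of TFR, 38.9% ± 6.26 of activated and 48.3% ± 6.07 of Sostdc1 cells. In TFH-ISG (35.5% ± 10.7) and effector cells (20.6% ± 10.6) it was found less often than in Sostdc1 cells in the mean, and TFR exceeded effector cells in 8 of 10 mice. The level in TFR cells was above that in all other cells in 5 of 10 mice, with a mean difference of -0.03 ± 0.11 in log2(count + 1). Detected cells held 1.44 ± 0.0768 corrected counts in TFR and 1.49 ± 0.105 in activated TFH cells. Central memory cells were low for Nrp1 (6.68% ± 2.81, below TFR in 8 of 8 mice), as they were for Tnfrsf4 and Tnfrsf18. Izumo1r was nearly universal in TFR (94.9% ± 0.931), activated (89.1% ± 2.78), Sostdc1 (87.9% ± 4.30) and TFH-ISG cells (86.9% ± 5.79) and was lower in effector (67.7% ± 11.2) and central memory cells (61.6% ± 6.13). Its difference lay in the amount: 6.95 ± 0.611 corrected counts per detected TFR cell against 4.98 ± 0.503 per detected activated TFH cell, and a higher level in TFR cells by 0.61 ± 0.18 on the log2(count + 1) scale.

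The number of the 8 genes detected in 1 cell was next counted. TFR cells held 4.73 ± 0.183 of them (SD over mice), TFH-ISG cells 3.49 ± 0.429, Sostdc1 cells 3.21 ± 0.180, activated TFH cells 3.04 ± 0.127, effector cells 2.06 ± 0.230 and central memory cells 1.96 ± 0.289. At least 5 were detected in 60.3% ± 5.60 of TFR cells, 26.4% ± 11.3 of TFH-ISG cells, 12.4% ± 2.78 of activated TFH cells and 12.6% ± 4.18 of Sostdc1 cells, so the distributions overlapped and no number of genes divided the clusters cleanly. All 8 were detected in 79 of 11650 TFR cells. None of the 3 genes found mainly in TFR cells, Foxp3, Ikzf4 and Il2ra, was detected in 33.9% ± 3.65 of TFR cells and in 89.3% ± 4.003 of activated TFH cells. The mean number per TFR cell was 4.82 ± 0.156 in WT and 4.65 ± 0.183 in 564Igi mice (SD, n = 5 each, exact permutation p = 0.159), and outside the TFR cluster it was 2.98 ± 0.0748 and 2.97 ± 0.144 (exact permutation p = 0.881), neither of which passed 0.05.

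**Figure D2:**
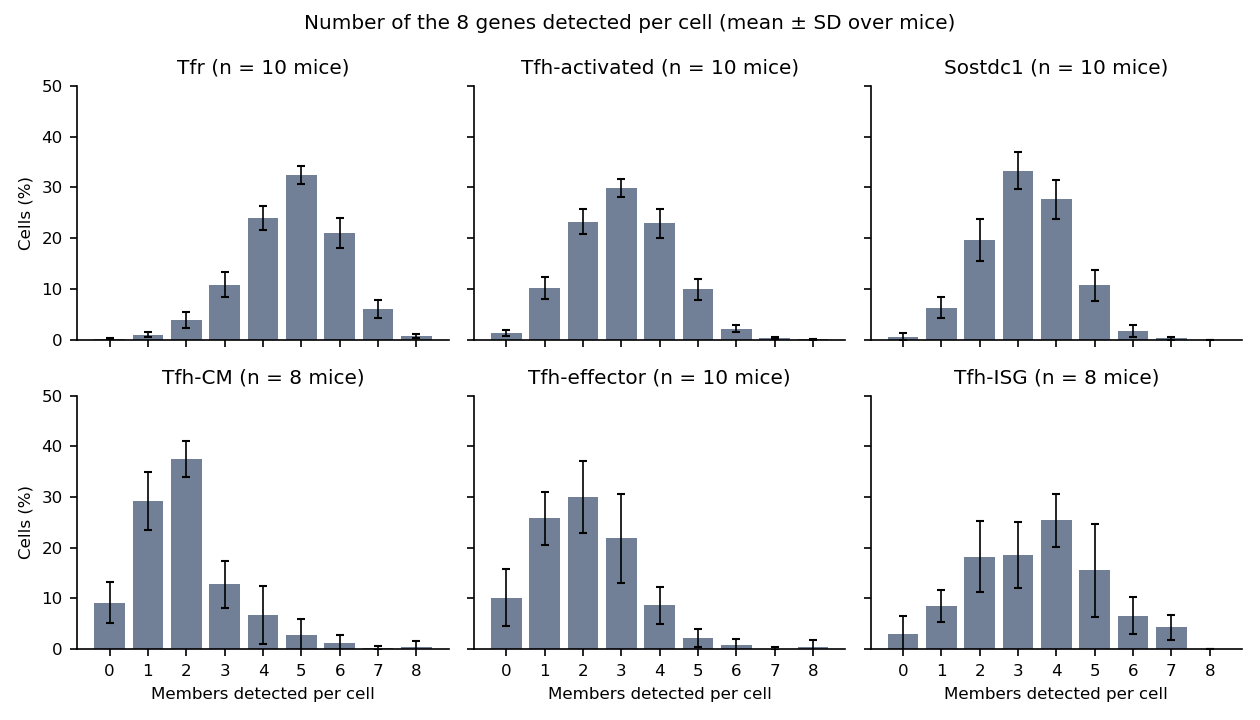
Percent of cells (y axis) by the number of the 8 genes detected in the cell (x axis), 1 panel per cluster, with bars at the mean and error bars of 1 SD over the mice given above each panel. The TFR distribution peaks at 5 genes and those of activated TFH and Sostdc1 cells at 3, with overlap between them.

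Whether the genes were detected in the same cells was then asked inside and outside the TFR cluster, within each mouse. Outside it, 1154 cells had detected Foxp3 and 15388 did not, and the 2 classes differed in the other regulatory genes. Ikzf4 was detected in 15.1% against 2.49%, Il2ra in 8.59% against 1.68% and Ikzf2 in 86.2% against 60.9% (means of mice, Foxp3-detected against Foxp3-undetected cells). Tnfrsf18 was found in 67.1% against 45.6% and Tnfrsf4 in 70.2% against 49.7%, while Nrp1 (46.1% against 37.2%) and Izumo1r (88.9% against 86.4%) were closer. The Foxp3-detected cells outside the TFR cluster thus resembled TFR cells in Ikzf2, Ikzf4 and Il2ra detection more than their neighbours did. Depth moved with these classes, and median raw UMIs were 4130.0 in Foxp3-detected and 3572.5 in undetected cells. A second α chain gene, a mark that cells with 2 rearranged α chains and doublets share, was listed by 15.96% against 12.2% of those with a TCR.

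Expressed as a log2 odds ratio per mouse, above 0 where 2 genes were found in the same cells more often than independent detection gives (with 0.5 added to each count of cells), Foxp3 outside the TFR cluster reached 2.85 ± 0.85 with Ikzf4, 2.51 ± 0.54 with Il2ra and 1.998 ± 0.32 with Ikzf2 (SD, n = 10 mice). Within quartiles of raw UMIs the same 3 values were 2.62, 2.13 and 2.01. Among TCR cells that list 1 α gene they were 2.71, 2.58 and 2.06. Inside the TFR cluster the same pairs gave 0.64 ± 0.29, 1.004 ± 0.41 and 1.22 ± 0.60. Foxp3 with the TNF receptors was nearly equal on both sides, 1.34 inside and 1.28 outside for Tnfrsf18 and 1.19 and 1.24 for Tnfrsf4. With Nrp1 it was 0.54 outside and near 0 inside, where 36.3% against 36.4% of cells with and without Foxp3 held Nrp1.

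Of the 28 pairs of genes, 17 were above 0 in every mouse outside the TFR cluster and 14 inside it. The strongest inside was Ikzf2 with Izumo1r (1.80, against 0.42 outside), followed by Il2ra with Tnfrsf4 (1.52 inside, 1.35 outside) and Tnfrsf18 with Izumo1r (1.40 inside, 0.43 outside). The adjacent genes Tnfrsf18 and Tnfrsf4 were also found together, at 1.35 ± 0.29 inside and 0.85 ± 0.23 outside. Nrp1 was apart from this group, with -0.21 for Tnfrsf18 and -0.15 for Tnfrsf4 inside the TFR cluster. Ikzf4 with Izumo1r had a mean of -0.48 outside, where the share of cells with Izumo1r was higher with than without Ikzf4 in 2 of 10 mice, and within UMI quartiles the mean was -0.02. These values describe cells of the clusters as the authors drew them, and both the genes and the boundary come from the same counts.

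**Figure D3:**
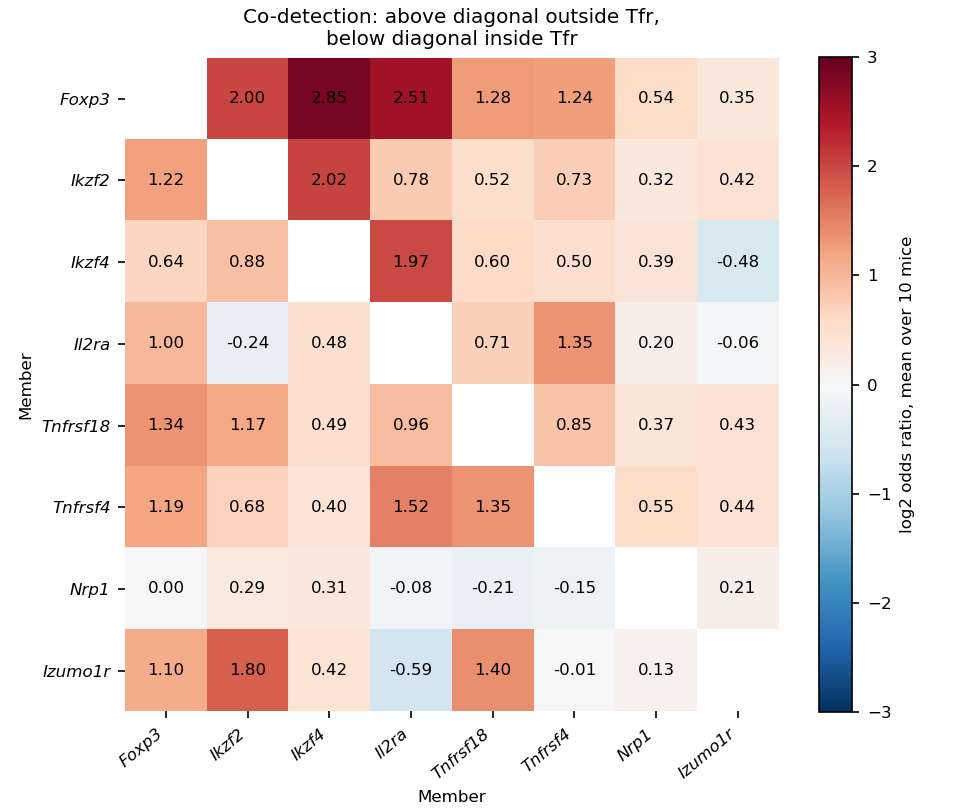
Mean log2 odds ratio over 10 mice (colour and number) that 2 of the genes (rows and columns) are detected in the same cell, outside the TFR cluster above the diagonal and inside it below. The darkest cells are Foxp3 with Ikzf4 and with Il2ra outside the TFR cluster, at 2.85 and 2.51.

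The paired TCR sequences gave a readout that the clustering did not use. Cells of 1 mouse with the same α and β CDR3 sequences were taken as a clone. For each cell in a clone of at least 2 cells it was asked whether a clone sister lay on the other side of the TFR boundary. Outside the TFR cluster, 74.9% ± 15.5 of Foxp3-detected cells had a TFR sister, against 47.2% ± 11.1 of Foxp3-undetected cells (SD, n = 10 mice, 447 and 8180 cells). By mouse the shares of Foxp3-detected cells were 78.7, 91.4, 39.5, 80.3 and 81.8% in WT and 88.6, 75.6, 78.3, 56.2 and 78.3% in 564Igi mice. Those of undetected cells were 45.7, 70.8, 29.9, 49.3 and 50.8% in WT and 49.6, 50.9, 47.0, 32.3 and 46.3% in 564Igi mice. The Foxp3-detected class was higher in 10 of 10 mice, and within a mouse both shares tended to be high or low together. The difference was 27.6 ± 8.22 percentage points (9.62 to 39.0, exact 2-sided sign-flip permutation p = 0.00195, the smallest that 10 mice allow). With each clonotype counted once in each class that any of its cells fell in, it was 32.2 percentage points (339 and 1704 clonotypes). A large clone enters the detected class more easily than a small one, so this count does not hold clone size equal. Without cells that list 2 α genes the difference was 27.7 percentage points.

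The nuclear factors shared this pattern and the surface receptors did so in part. Among cells outside the TFR cluster, having a TFR sister was more frequent by 22.4 ± 10.1 percentage points with detected Ikzf4 and by 12.4 ± 6.77 percentage points with detected Ikzf2, each in 10 of 10 mice (exact sign-flip permutation p = 0.00195 for both). The differences were smaller for Tnfrsf4 (6.50 ± 6.75 percentage points, higher in 8 of 10 mice, exact permutation p = 0.0176), Izumo1r (6.27 ± 7.19 percentage points, 7 of 10, exact permutation p = 0.0312) and Tnfrsf18 (3.83 ± 3.88 percentage points, 8 of 10, exact permutation p = 0.0176). Il2ra (3.096 ± 14.7 percentage points, 5 of 10, exact permutation p = 0.520) and Nrp1 (0.482 ± 6.16 percentage points, 6 of 10, exact permutation p = 0.803) did not pass 0.05. For Nrp1 the mean was 5.28 in WT and -4.32 in 564Igi mice, and these differed (exact permutation p = 0.0159). With activated TFH cells alone in place of all cells outside, Tnfrsf4, Tnfrsf18 and Izumo1r did not pass (exact permutation p = 0.148, 0.0742 and 0.316). The Izumo1r difference no longer passed without any 1 of 6 mice (WT 11, 12 or 23, or 564Igi 17, 21 or 34, exact permutation p from 0.0586 to 0.0625), nor did that of Tnfrsf4 without mice 34 and 36 (exact permutation p = 0.0703). The p-values of the 16 tests, 8 genes on each side, are unadjusted.

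Inside the TFR cluster the relation ran the other way. A sister outside the cluster was found for 47.7% ± 9.36 of Foxp3-detected and 61.8% ± 7.57 of Foxp3-undetected TFR cells (3021 and 2483 cells), a difference of -14.1 ± 3.66 percentage points that was negative in all 10 mice (exact sign-flip permutation p = 0.00195). Ikzf2 (-12.8 ± 6.86 percentage points), Tnfrsf18 (-12.7 ± 7.94 percentage points) and Ikzf4 (-11.5 ± 4.74 percentage points) were likewise negative in every mouse (exact permutation p = 0.00195 for each). Izumo1r gave the largest and most variable difference (-22.6 ± 19.4 percentage points, exact permutation p = 0.00586), followed by Il2ra (-7.96 ± 9.83 percentage points, exact permutation p = 0.0332) and Tnfrsf4 (-6.68 ± 5.98 percentage points, exact permutation p = 0.0117), while Nrp1 was at 0.444 ± 4.75 percentage points (exact permutation p = 0.775). Only 281 TFR cells of expanded clones had no Izumo1r count, 9 to 48 per mouse, and over all TFR cells the median raw depth was 5282.5 UMIs without and 3410.0 with Izumo1r, the reverse of the order for Foxp3 (3330.0 and 3564.5). Without the 10% of cells with the most UMIs the Izumo1r difference was -21.8 percentage points (exact permutation p = 0.0156). The Il2ra difference no longer passed without any 1 of 6 mice (WT 11 or 36, or 564Igi 13, 17, 21 or 24, exact permutation p from 0.0508 to 0.0664), and that of Tnfrsf4 did not with each clonotype counted once (exact permutation p = 0.0820). In the mean, for 7 of the 8 genes, TFR cells without a count thus shared a clone with cells outside the cluster more often than TFR cells with one. No share over all genes is given beside the clone sharing differences on either side. Whether they are particular to these genes was not tested.

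Clone sharing was also read by the number of the 8 genes detected. This number counts the same genes in the same cells and clones, so it is not a result apart from those above. No series at equal depth is given. Outside the TFR cluster a TFR sister was found for 36.1% ± 9.15 of cells with 0 or 1 of the genes, 45.2% with 2, 48.4% with 3, 51.6% with 4, 56.5% with 5 and 79.7% ± 18.9 with 6 to 8 (means of 10 mice). For TFR cells the share with a sister outside fell from 88.5% ± 9.35 (6 mice with at least 5 such cells) through 79.4%, 64.6%, 56.8% and 51.0% to 46.1% ± 11.3 over the same steps. Both series were monotonic in their means, with wide overlap between mice at adjoining steps.

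**Figure D4:**
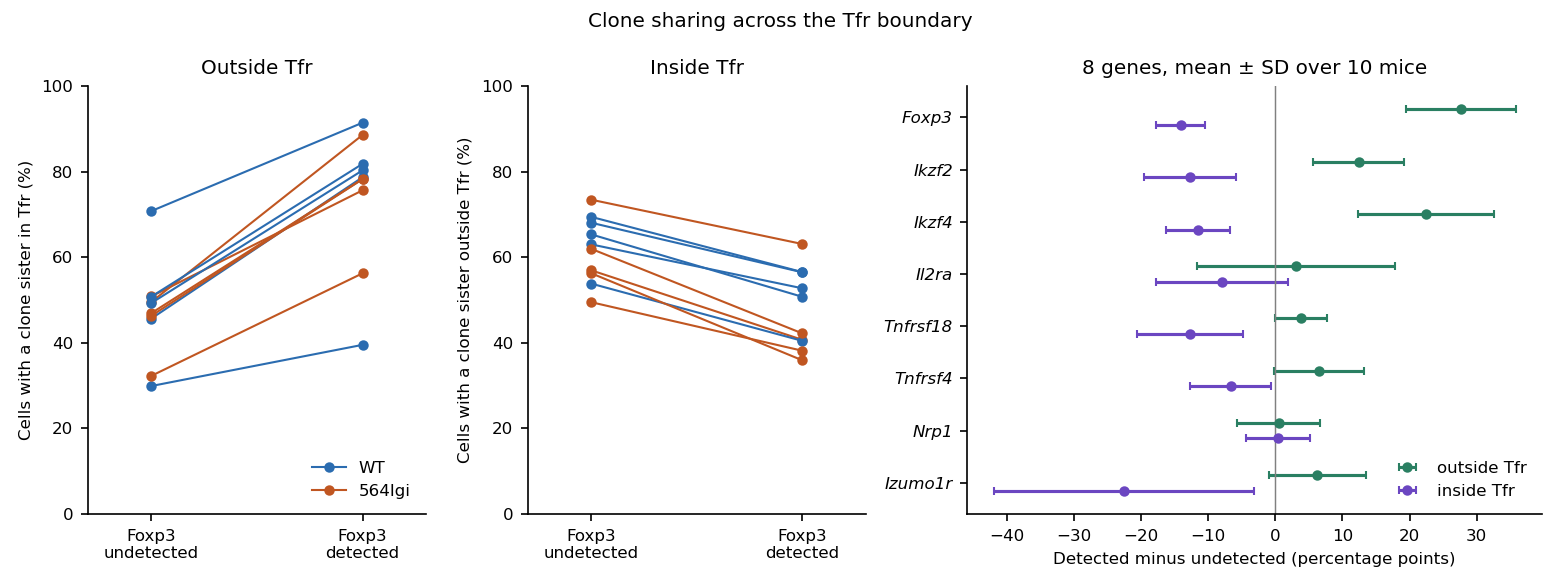
Left and middle, percent of cells of expanded clones with a clone sister on the other side of the TFR boundary (y axis) for Foxp3-undetected and Foxp3-detected cells (x axis), 1 line per mouse, WT blue and 564Igi orange. Right, the difference between detected and undetected cells for each of the 8 genes in percentage points, mean and SD over 10 mice, outside (green) and inside (purple) the TFR cluster. All 10 lines rise outside and fall inside the cluster.

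The comparison of autoimmune with non-autoimmune chimeras asked whether these genes differ in level with the condition. In the limma fit over all genes none of the 8 was called (adjusted p under 0.01 and a log2 difference over 0.2) in all follicular T cells, where 1 of 9959 genes was (0.01%), nor in any of the 6 clusters, where 7 of 59145 gene and cluster combinations were (0.0118%). Without adjustment, a limma p under 0.05 was reached by 1 of the 8 genes in all cells (background 3.19%), 2 in TFR (3.5%), 2 in activated TFH (3.99%) and 4 in Sostdc1 cells (4.6%), all lower in 564Igi mice. In the smaller clusters it was reached by 1 gene in central memory (background 7.57%), 0 in effector (5.22%) and 1 in TFH-ISG cells (4.2%), and both were higher in 564Igi mice. The first was Nrp1 in central memory cells (n = 5 WT and 3 564Igi mice), with a log2 difference of 0.07 (SE 0.03) and an adjusted limma p of 0.627. The second was Tnfrsf4 in TFH-ISG cells (n = 4 WT and 4 564Igi mice), with a log2 difference of 0.28 (SE 0.12) and an adjusted limma p of 0.998. Of the genes that were lower, Ikzf4 passed in each of the 4 comparisons, Foxp3 in activated TFH and Sostdc1 cells, Nrp1 in TFR cells, and Ikzf2 and Tnfrsf18 in Sostdc1 cells. The largest of the lower values was that of Ikzf2 in Sostdc1 cells, a log2 difference of -0.30 (SE 0.09) with an adjusted limma p of 0.728. Ikzf4 in activated TFH cells had the smallest p, for a log2 difference of -0.02 (SE 0.00446) with an adjusted limma p of 0.561. The difference between TFR and activated TFH cells was compared in the same way within mice, and it called 0 of the 8 genes and 0 of 10236 genes. Nrp1 alone had an unadjusted p under 0.05 there, as did 7.97% of all genes, with a 564Igi minus WT difference of -0.13 (SE 0.04) and an adjusted limma p of 0.378. The matrix was normalized separately for each condition, which limits any level compared between them.

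Shares of detected cells were also compared by an exact 2-sided permutation of the 10 mice. Over all cells and the 6 clusters, 5 of 56 comparisons (8.93%) had p under 0.05, against 3.34% of 69104 comparisons over all genes, and all 5 were lower in 564Igi mice, a direction that 1.89% of all comparisons passed in. Of the 56 differences, passing or not, 32 were negative. They were negative for 6 of 8 genes in TFR, 5 in activated TFH and 7 in Sostdc1 cells, but for 2 in central memory, 4 in effector and 1 in TFH-ISG cells. These counts of negative differences have no share over all genes beside them, and the comparisons in all cells reuse the cells of the clusters. The comparisons with p under 0.05 included Foxp3 in TFH cells. In Sostdc1 cells it was detected in 5.74%, 7.61%, 6.99%, 4.42% and 5.21% in the WT mice and in 4.27%, 4.12%, 2.90%, 0% and 2.03% in the 564Igi mice, with no overlap. The value of mouse 24 was 0 of 82 cells, which allows a share of up to 3.66%, by counting error only. The means were 6.00% ± 1.303 in WT and 2.67% ± 1.75 in 564Igi mice (SD, n = 5 and 5; exact permutation p = 0.00794). At a cutoff of 2 counts the call was lost (exact permutation p = 0.111). In these cells 0.83% of all genes showed no overlap, and 2.84% were lower in 564Igi mice at p under 0.05. In activated TFH cells Foxp3 was detected in 11.1%, 6.15%, 12.9%, 7.61% and 7.47% in the WT and 5.68%, 8.10%, 4.25%, 4.50% and 4.22% in the 564Igi mice, overlapping in part, with means of 9.05% ± 2.83 in WT and 5.35% ± 1.65 in 564Igi mice (SD, n = 5 and 5; exact permutation p = 0.0476). That call was lost without any 1 of 6 mice (WT 11 or 14, or 564Igi 13, 21, 24 or 34, exact permutation p from 0.0635 to 0.0952) and without mice 34 and 36 together (exact permutation p = 0.114).

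Ikzf4 followed Foxp3 in activated TFH cells, with 3.72%, 4.33%, 3.92%, 3.65% and 2.43% in the WT and 2.24%, 2.79%, 1.93%, 1.80% and 1.45% in the 564Igi mice, and the WT mouse 36 lay within the 564Igi range. The means were 3.61% ± 0.710 in WT and 2.04% ± 0.503 in 564Igi mice (SD, n = 5 and 5; exact permutation p = 0.0159). In the same cells 1.34% of all genes were lower in 564Igi mice at p under 0.05. Tnfrsf18 in Sostdc1 cells was detected in 53.1%, 50.8%, 52.4%, 60.3% and 48.3% in the WT and 50.4%, 47.9%, 46.9%, 43.9% and 43.6% in the 564Igi mice, overlapping in part, with means of 53.0% ± 4.48 in WT and 46.5% ± 2.86 in 564Igi mice (SD, n = 5 and 5; exact permutation p = 0.0159). Nrp1 was the 1 gene that differed in TFR cells, with 49.5%, 39.8%, 32.4%, 38.7% and 38.5% in the WT and 35.0%, 32.1%, 36.7%, 32.1% and 28.6% in the 564Igi mice. Its means were 39.8% ± 6.17 in WT and 32.9% ± 3.102 in 564Igi mice (SD, n = 5 and 5; exact permutation p = 0.0397), and WT mouse 11 was the highest. Leaving out any 1 of 7 mice (WT 11, 12, 23 or 36, or 564Igi 17, 24 or 34) ended this call, with exact permutation p from 0.0635 to 0.0952. At this threshold 1.67% of all genes were lower in TFR cells of 564Igi mice.

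Foxp3 itself was detected in TFR cells at 56.5% ± 3.20 in WT and 55.6% ± 4.99 in 564Igi mice (SD, n = 5 and 5; exact permutation p = 0.841). The difference was smaller than the spread between mice, as it was for Il2ra, detected in 11.8% ± 3.29 in WT and 11.9% ± 3.81 in 564Igi mice (SD, n = 5 and 5; exact permutation p = 0.976), and for Tnfrsf4, detected in 84.8% ± 0.754 in WT and 84.9% ± 2.35 in 564Igi mice (SD, n = 5 and 5; exact permutation p = 0.976). Ikzf4 was lower in the mean without passing 0.05, at 22.3% ± 2.53 in WT and 18.2% ± 3.50 in 564Igi mice (SD, n = 5 and 5; exact permutation p = 0.0952). Ikzf2 likewise did not pass, at 91.9% ± 2.95 in WT and 88.9% ± 3.28 in 564Igi mice (SD, n = 5 and 5; exact permutation p = 0.151). The mean share of TFR cells was 43.2% in WT and 39.0% in 564Igi mice (exact permutation p = 0.405), and the mean over mice of the median UMI count was 3492 and 3548 (exact permutation p = 0.857).

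**Figure D5:**
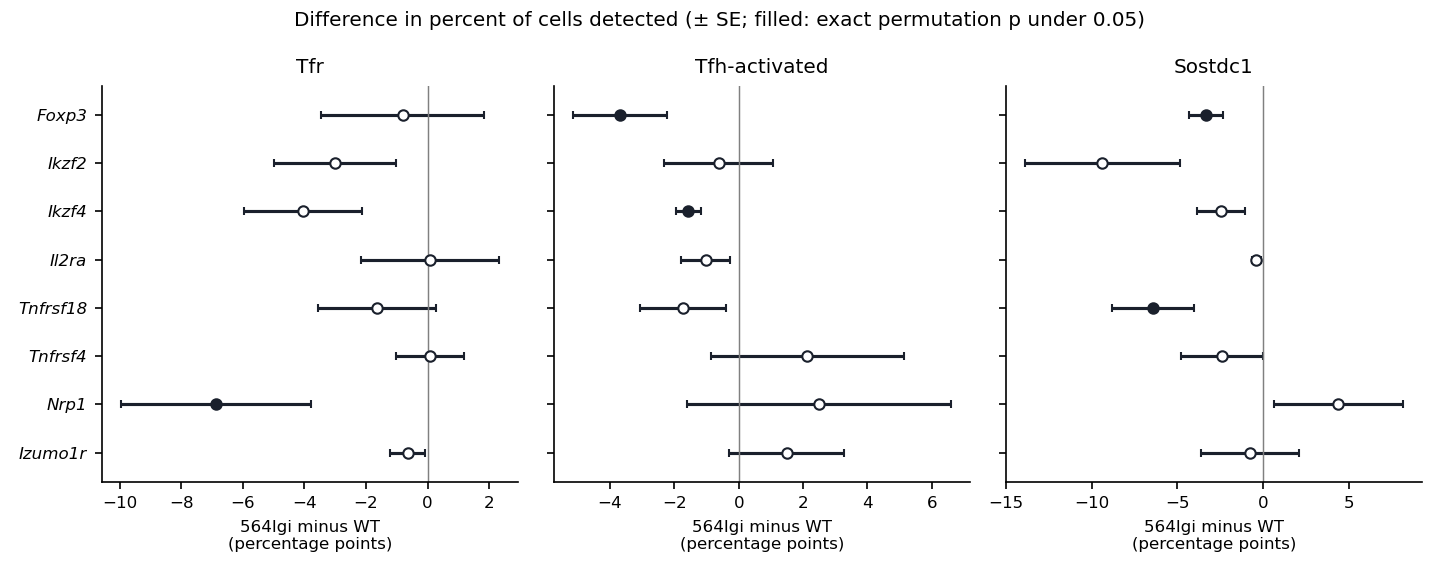
Difference in percent of cells detected, 564Igi minus WT (x axis, percentage points), for each of the 8 genes in TFR, activated TFH and Sostdc1 cells, with bars of 1 SE (n = 5 mice per group) and filled points at an exact permutation p under 0.05. The 5 filled points all lie below 0.

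Co-detection with Foxp3 was compared between the groups as well, in 14 tests, of which 3 had an unadjusted exact p under 0.05. This count has no share over all genes beside it. Outside the TFR cluster the log2 odds ratio of Foxp3 with Ikzf4 was 2.44, 2.53, 1.01, 2.74 and 2.85 in the WT mice and 3.60, 3.33, 2.91, 4.27 and 2.83 in the 564Igi mice. WT mouse 14 was the lowest, and the groups met at 2.85 and 2.83. The ratio averaged 2.31 ± 0.75 in WT and 3.39 ± 0.58 in 564Igi mice (SD, n = 5 each, exact permutation p = 0.0159). Within UMI quartiles the same comparison had an exact permutation p of 0.0556. Inside the TFR cluster Foxp3 with Tnfrsf18 averaged 1.14 ± 0.18 in WT and 1.55 ± 0.16 in 564Igi mice (SD, n = 5 each, exact permutation p = 0.0159), and Foxp3 with Nrp1 averaged 0.15 ± 0.22 in WT and -0.15 ± 0.14 in 564Igi mice (SD, n = 5 each, exact permutation p = 0.0317). The latter had an exact permutation p of 0.0794 among TCR cells that list 1 α gene.

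Other genes of the regulatory pathways were read from lists, as the number that were higher or lower in TFR than in all other cells in 10 of 10 mice, again with no test. Over all 9959 genes 1222 were higher and 855 lower, and of the 8 genes 7 were higher, with a median difference of 0.70 in log2(count + 1) against 0.000816 over all genes. Of 10 genes of the IL-2 receptor and its signal, 4 were higher and 0 lower. The other receptor chains Il2rg (0.36 ± 0.05) and Il2rb (0.25 ± 0.06) and the STAT5-induced inhibitor Cish (0.11 ± 0.03) led, whereas the inhibitor Socs1 (-0.06 ± 0.05) and the kinase Jak1 (-0.07 ± 0.05) were at the lower end, each lower in 9 of 10 mice. Il2rg and Il2rb were detected in 88.3% against 79.3% and 66.0% against 53.8% of TFR and other cells, and so were present in many more cells than Il2ra.

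Of 17 partners of Foxp3 and transcription factors of regulatory T cells, 4 were higher and 5 lower. Foxo1 (0.11 ± 0.03), the NF-κB subunit Rel (0.10 ± 0.04) and the repressor Prdm1 (Blimp-1; 0.06 ± 0.02) were at the upper end, and Tcf7 (-0.59 ± 0.12), which encodes the TFH-associated factor TCF-1, and Id2 (-0.19 ± 0.07) at the lower. Of 14 suppressive effectors and surface proteins 9 were higher and 0 lower, led by the inhibitory receptors Tigit (0.72 ± 0.09) and Ctla4 (0.45 ± 0.12) and the costimulator Icos (0.28 ± 0.09), whereas Pdcd1 (-0.08 ± 0.13), which encodes the sorted protein PD-1, and Lag3 (-0.08 ± 0.13) were mixed between mice.

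Of 8 other TNF receptors and adaptors 5 were higher and 0 lower. Tnfrsf9 (4-1BB; 0.81 ± 0.07) was detected in 59.2% against 19.4% of TFR and other cells, a sharper contrast in detection than for Tnfrsf4 or Tnfrsf18. Its difference in level was below that of Tnfrsf4 (1.06 ± 0.08) and close to that of Tnfrsf18 (0.80 ± 0.07). In this list Tnfrsf1b (TNFR2; 0.33 ± 0.07) and Cd27 (0.21 ± 0.04) came next in level. Traf3 (0.02 ± 0.01) and Tnfrsf25 (DR3; -0.05 ± 0.04) were lowest. Of 10 further regulatory T cell signature genes 9 were higher and 0 lower, with Cd83 (0.60 ± 0.12), the decoy receptor Il1r2 (0.54 ± 0.13) and Capg (0.51 ± 0.08) at the top and Klrg1 (0.04 ± 0.02) and Il1rl1 (0.000792 ± 0.00207), the ST2 receptor, at the bottom. Of 8 relatives and ligands of the genes, 1 was higher, Foxp4 (0.05 ± 0.02), and 4 were lower, among them Foxp1 (-0.16 ± 0.05) and the CD30 ligand Tnfsf8 (-0.79 ± 0.14), which was detected in 20.997% against 61.2% of TFR and other cells. Tnfsf4, the OX40 ligand, was detected in 0.234% against 0.258%, and the plexin Plxna1 in 0.259% against 0.281%. With the settings used throughout, none of the listed genes was called between conditions by limma. Under alternatives, Id3 was called in TFR cells without WT mouse 14, and with labelled sex as a covariate. Lag3 was called in central memory cells without 564Igi mouse 24, where mice 13 and 17 were the only 564Igi mice left. In effector cells Id3, Tcf7 and Capg were called without mice 34 and 36, Tcf7 without WT mouse 23, Id3 without 564Igi mouse 34, and Id3 and Tcf7 at an adjusted p under 0.05.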

How the data were processed

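The authors' deposited table holds natural log values, ln(count + 1), of UMI counts corrected by sctransform on each condition separately. Reads were processed with Cell Ranger 4.0.0 on GRCm38 (mm10) and Seurat 3.1.4 per the labels. Undoing the log gave whole corrected counts for 100% of values (relative tolerance 1e-06), with 2804 to 4591 per cell. The deposited cell table gives raw UMI counts, percent of mitochondrial and ribosomal UMIs, scores of cell cycle and heat shock (these percent and score columns were not used) and the authors' clusters. The TCR table lists at most 2 entries per field, so a second α chain shows only as a second α gene (2673 of 21405 cells), and a second β chain cannot be seen. No doublet caller was run, and depth limits detection of a gene in single cells.

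Per mouse and cluster (at least 20 cells), the mean log2(corrected count + 1) and the percent of cells with a count were computed. Conditions were compared with limma 3.58.1 (trend, genes in at least 1% of cells, Benjamini-Hochberg over all genes) and, for shares, by exact 2-sided permutation of mice (252 assignments). Log2 odds ratios used an added count of 0.5. Clone sharing required 5 cells per class and mouse and was tested by flipping signs over mice (1024 patterns). The limma step and the exact tests were tested on simulated data. Alternatives thinned cells to 2500 corrected counts, counted cells with at least 2 counts, dropped the trend or the filter, rescaled levels, left out mice or counted clones and cells differently. Python 3.11.15, NumPy 2.4.6, pandas 2.3.3, SciPy 1.17.1 and R 4.3.3 were used.

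The 8 genes and all lists were chosen with earlier results of these data known. Genes named besides the 8 were, by rule, the 5 with the highest correlation with Foxp3 and the 2 highest with each other gene over mouse and cluster means, the 3 highest and 2 lowest of each list in TFR minus other cells, and any list gene called between conditions.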

Additional observations from a re-analysis of the deposited data

Results flagged for a closer look

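Among 136 groups of 4 or 5 mice, 8 had 1 mouse far from the rest, where chance flags about 1 in 20 groups. WT mouse 14 was high in central memory TFH cells for Ikzf2 (88.1% against a group median of 67.0%), Tnfrsf4 (28.6% against a group median of 9.68%) and Nrp1 (9.52% against a group median of 4.21%), on 42 cells. Tnfrsf4 was high in 564Igi mouse 13, both in all cells (74.6% against a group median of 62.4%) and in TFR cells (88.9% against a group median of 84.1%), where the 2 values share their cells. Il2ra was high in the TFH-ISG cells of 564Igi mouse 17 (11.6% against a group median of 3.26%), on 43 cells. For clone sharing, the difference between Tnfrsf18-detected and undetected cells outside the TFR cluster was low in WT mouse 14, at 0.765 percentage points against a median of 7.49, and that of Ikzf4 inside the cluster was -21.3 in 564Igi mouse 24 against a median of -11.5.

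In 4 of 24 tests of an effect itself the groups differed at an unadjusted p under 0.05. The tests share cells and clones, and no share over all genes is given beside this count. Outside the TFR cluster, the gain in TFR sisters with detected Ikzf4 was 15.5 ± 6.90 in WT and 29.3 ± 8.01 in 564Igi mice, a 564Igi minus WT difference of 13.8 (SD, n = 5 each, exact permutation p = 0.0238) percentage points. The same measure for Tnfrsf18 was 6.51 ± 3.33 in WT and 1.15 ± 2.17 in 564Igi mice, a 564Igi minus WT difference of -5.36 (SD, n = 5 each, exact permutation p = 0.0238). For Nrp1 it was 5.28 ± 2.24 in WT and -4.32 ± 4.76 in 564Igi mice, a 564Igi minus WT difference of -9.60 (SD, n = 5 each, exact permutation p = 0.0159), so that the means of the groups had opposite signs and the mean over all 10 mice lay near 0. Inside the cluster, the Tnfrsf18 difference in sisters outside was -7.72 ± 5.31 in WT and -17.6 ± 7.20 in 564Igi mice, a 564Igi minus WT difference of -9.93 (SD, n = 5 each, exact permutation p = 0.0476). The corresponding difference for Foxp3 outside the cluster, 25.1 ± 9.90 in WT and 30.2 ± 6.13 in 564Igi mice, a 564Igi minus WT difference of 5.15 (SD, n = 5 each, exact permutation p = 0.373), did not pass 0.05.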

How the results depend on the processing

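No result changed direction where it had passed its test. The count of shares with an exact p under 0.05 between conditions was 5 of 56, was 8 after thinning to 2500 corrected counts, and ran from 3 to 9 when each mouse was left out (9 without 564Igi mouse 13 and 3 without 564Igi mouse 24). None of the 8 genes was called by limma under any alternative. Genes called by limma in all cells numbered 1, against 0 without the trend, 2 on a per-10000 scale, 2 without WT mouse 23 and 7 at an adjusted p under 0.05. In the 6 clusters summed they numbered 7, against 0 without the trend, 3 without the filter, 13 without mice 34 and 36, 27 at an adjusted p under 0.05 and, with 1 of 564Igi mice 13, 17, 24 or 34 left out, 11, 11, 14 and 11. The difference between TFR and activated TFH cells called 0, 1 on the per-10000 scale and 2 without WT mouse 14. The Foxp3 clone sister difference ran from 25.6 to 32.2 percentage points outside and from -18.6 to -13.0 inside the TFR cluster over the alternatives, the count of pairs above 0 in every mouse from 12 to 19 outside and 11 to 15 inside, and the Foxp3 pairs that differed between conditions from 2 to 4. Counting each clonotype once and leaving out mice 34 and 36 from co-detection were chosen after seeing the data. Counted as pairs of a single-gene result and an alternative, a call was lost in 40. Among them was Foxp3 in Sostdc1 cells at 2 or more counts (exact permutation p = 0.111). No paired analysis was possible because the mice of the groups share no number. Il2ra and Ikzf4 outside the TFR cluster rest on few cells, which limits their precision.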

Other observations

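The genes with the level pattern most like that of Foxp3 were sought over 56 means of mouse and cluster among 9959 genes, as a description in which the points share mice, libraries and clusters. Each gene is given with Pearson's r and then with r after the mean of each cluster was removed, which was lower for every gene named. For Foxp3 they were Cd74 (0.951, 0.44), Ncmap (0.928, 0.53), Ccr8 (0.914, 0.32), Cd81 (0.904, 0.49) and Rragd (0.903, 0.56), where Cd74 encodes the invariant chain of MHC class II, Ccr8 a chemokine receptor of regulatory T cells and Cd81 a tetraspanin. For Ikzf2 they were Cd81 (0.883, 0.49) and Bmyc (0.846, 0.40), and for Ikzf4 Cd81 (0.851, 0.31) and Cd74 (0.834, -0.02). Il2ra was most like Rragd (0.853, 0.35) and Flicr (0.840, 0.41), the latter a noncoding RNA gene beside Foxp3. Tnfrsf18 was most like Ccr8 (0.949, 0.67) and Cd83 (0.930, 0.52) and Tnfrsf4 most like Cd83 (0.946, 0.68) and Ctla4 (0.935, 0.48), while Nrp1 was most like Prkca (0.897, 0.61) and Eea1 (0.879, 0.54) and Izumo1r most like Sting1 (0.896, 0.42) and Itm2c (0.884, 0.62). Among the 8 genes the adjacent pair Tnfrsf18 and Tnfrsf4 was the most alike (0.943), Foxp3 and Tnfrsf18 had 0.920, and Foxp3 and Nrp1 had 0.161.

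Clone sharing with TFR cells was also counted by cluster, with cells pooled over mice and so without a test. Of Foxp3-detected TFH-ISG cells in expanded clones 35 of 36 (97.2%) had a TFR sister, against 54 of 128 (42.2%) of Foxp3-undetected ones. The counts were 52 of 64 (81.2%) and 846 of 1657 (51.1%) in Sostdc1 cells and 247 of 328 (75.3%) and 2986 of 5981 (49.9%) in activated TFH cells. In effector TFH cells they were 4 of 16 (25.0%) and 85 of 380 (22.4%), close to each other, and central memory cells had only 3 Foxp3-detected cells in expanded clones.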
